A study of Mus musculus with 23 samples.

Results

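RNA levels of 10 genes of interleukin-1 (IL-1), tumor necrosis factor (TNF) and NF-kB signaling were followed in ex vivo tumors grown from GL261 and CT2A, both carcinogen-induced mouse glioma lines. The genes were chosen by name, with no measured value in the rule but with earlier results of these data known. They make up 10 of the 35576 genes counted: the cytokines Il1a, Il1b and Tnf, the receptor antagonist Il1rn, the NF-kB subunits Nfkb1, Nfkb2, Rela and Relb, and the inhibitors Nfkbia and Tnfaip3. All 10 had reads in all 23 libraries and passed the filter on low counts in every comparison.

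IL-1 and TNF are released by activated myeloid cells, among them the macrophages and microglia that enter gliomas, and their receptors on other cells activate the kinases that free NF-kB from its cytoplasmic inhibitors. NF-kB is a dimer of Rel proteins. Rela and Relb carry activation domains, whereas Nfkb1 and Nfkb2 encode precursors that are processed to the DNA-binding subunits p50 and p52. Nfkbia (IkB-alpha) holds the dimer in the cytoplasm, Tnfaip3 (A20) is a ubiquitin-editing enzyme that dampens the signal from the receptors, and both are themselves induced by NF-kB, as are Il1a, Il1b and Tnf. Il1rn occupies the IL-1 receptor without signaling.

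The tumors grew in the right striatum of female albino C57BL/6 mice aged 7 to 10 weeks, and all cells carried a luciferase reporter. The bulk set held 4 GL261-luc2 tumors (100000 cells implanted) and 4 CT2A-luc tumors (25000 cells implanted), harvested after 22 to 24 days. The sorted set held tumor cells selected with magnetic beads from 4 GL261 and 3 CT2A tumors of further sublines (200000 cells implanted) grown as adherent cultures. The neurosphere set held cells selected in the same way from tumors of lines kept as neurospheres, 3 of GL261 and 5 of CT2A. Bulk and sorted libraries differed in subline, implanted cells, selection, library kit, sequencer and read length (150 against 37 bases), so these cannot be told apart between the sets. For the kit the study's text was followed, as the labels name the same kit for all libraries. Within the bulk set the lines differed in implanted cells and in depth, so neither can be told apart from line there. The study counts its replicates as mice, whereas the labels only number the samples.

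Reads per library ranged from 7395846 to 42608400, with 34622622 to 42608400 in the GL261 bulk tumors and at most 15263587 in any other library. For the 5 CT2A neurosphere libraries the sample titles say GL261, but the fields for cell line and description say CT2A. En1 had no read in any GL261 library and 18.9 to 23.6 CPM (reads scaled to library size by TMM) in these 5, and Dppa4 had no read in the 5 and 17.1 to 21.6 CPM in the GL261 neurosphere libraries, so they were treated as CT2A. None of 13 macrophage markers was at 0 in any library, sorted ones included. The summed macrophage markers were 762 to 1147 CPM in GL261 bulk, 695 to 1171 in CT2A bulk, 258 to 1125 in GL261 sorted and 742 to 1453 in CT2A sorted libraries. They were 5187 to 8286 CPM in GL261 neurosphere and 534 to 2997 in CT2A neurosphere libraries. Individual libraries stood apart in these genes, namely GL261 sorted sample 81 (lowest in macrophage markers and high in Nfkbia and Relb) and CT2A neurosphere sample 60 (high in Il1a and Tnf). Sample 60 also held 308 CPM of oligodendrocyte markers against 29.3 to 54.5 in the other 4 libraries of its group, and the highest sum of microglial markers of the 5 (537 CPM). The part of these cells in its levels was not tested. Results that rest on them are given with and without them.

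Nfkb1 was higher in CT2A than in GL261 in all 3 kinds of library, by 2.63-fold to 3.99-fold. The cytokine genes and Il1rn were low in bulk and sorted libraries of both lines and highest in the GL261 neurosphere libraries, where Tnf was 19.6-fold above the adherent-derived sorted cells. By edgeR (adjusted p under 0.05 over all genes tested), 3 of the 10 genes were higher and 0 lower in CT2A than in GL261 bulk tumors, where 23.4% of all 16434 genes were called. In bulk tumors 11.4% of genes were called higher and 11.9% lower. In the sorted cells 3 were higher and 1 lower (50.8% of 13789 genes called, with 26.8% of all genes lower), and in the neurosphere set 3 were higher and 3 lower (59.6% of 13733 genes called, 30.0% higher and 29.6% lower). In GL261, 6 of the 10 were higher and 0 lower in neurosphere than in adherent-derived sorted cells, a comparison in which 8.53% of 13675 genes were called, 7.58% higher and 0.951% lower. The median log2 fold change of the 10 genes there was 1.66, and that of all genes tested was -0.03. In the 3 line comparisons the share of the 10 genes called was near that of all genes, so the counts as such are no result about these genes.

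**Figure D1:**
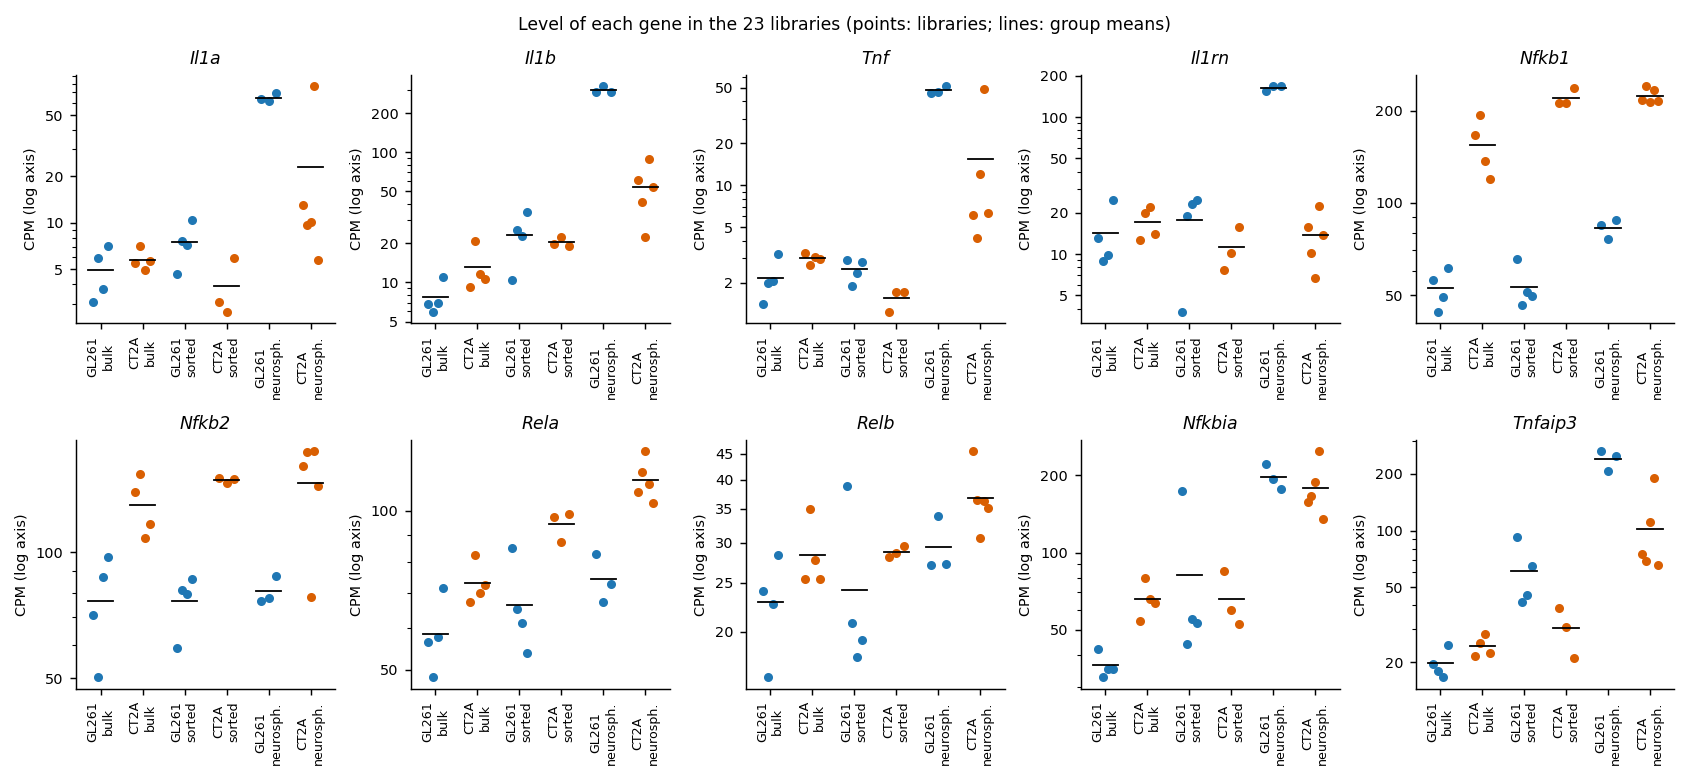
Level of each of the 10 genes (y axis, CPM on a log axis) in the 23 libraries of 6 groups (x axis), with 1 point per library and a line at the group mean. Nfkb1 is higher in every CT2A library than in every GL261 library, whereas the cytokines and Il1rn are highest in the 3 GL261 neurosphere libraries, joined in Il1a and Tnf by 1 CT2A neurosphere library.

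Compared per length, in TPM (Salmon's length-scaled level), Nfkbia and the subunits had higher mean levels than the cytokines in bulk tumors, whereas the mean of Tnfaip3 (8.06 in GL261 and 11.1 in CT2A) was below that of Il1b (11.8 and 21.8). In GL261 bulk tumors, Nfkbia averaged 46.1 ± 4.70 TPM and Rela 45.5 ± 9.82 TPM (SD, n = 4), while Tnf averaged 2.52 ± 0.89 TPM. In CT2A bulk tumors, Nfkb1 led with 96.6 ± 19.9 TPM, beside 96.1 ± 13.9 TPM of Nfkbia and 3.77 ± 0.36 TPM of Tnf (SD, n = 4). The order was different in the GL261 neurosphere libraries, in which Il1b had the highest TPM of the 10 genes with 412 ± 35.7 (SD, n = 3), followed by Nfkbia with 248 ± 9.82 and Il1rn with 149 ± 14.4.

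Il1b, the secreted IL-1 of myeloid cells (chr2:129364570-129371139, GRCm38), stood at 6.84, 5.94, 6.95 and 11.1 CPM in the 4 GL261 bulk tumors and at 9.31, 20.7, 11.6 and 10.6 CPM in the 4 CT2A bulk tumors. The ranges overlapped, and the log2 difference, 0.83 with a standard error (SE) of 0.33, did not pass the test (edgeR adjusted p = 0.111). It stood at 10.5, 25.3, 22.6 and 34.8 CPM in GL261 sorted cells and at 19.6, 22.4 and 18.9 CPM in CT2A sorted cells, again with overlap (log2 difference -0.26, SE 0.35, edgeR adjusted p = 0.573). Without GL261 sample 81, the lowest of its group, Il1b was lower in CT2A sorted cells (log2 fold change -0.51, SE 0.17, edgeR adjusted p = 0.0312).

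In the neurosphere set Il1b reached 291, 324 and 292 CPM in GL261 and 60.7, 41.6, 22.3, 89.6 and 54.5 CPM in CT2A. Every GL261 library was above every CT2A library, and Il1b was 5.79-fold lower in CT2A (log2 fold change -2.53, SE 0.35, edgeR adjusted p = 0.000213). Within GL261 it was 13.2-fold higher in neurosphere than in adherent-derived cells (log2 fold change 3.72, SE 0.35, edgeR adjusted p = 0.00252). The corresponding log2 difference in CT2A was 1.38 (SE 0.39, unadjusted p = 0.00571, edgeR adjusted p = 0.221), with overlapping ranges. A test of the difference between the lines' differences gave -2.32 on the log2 scale (SE 0.53, edgeR adjusted p = 0.0188), in a fit that called 6.67% of 13824 genes, 0.969% above and 5.70% below 0. That call was lost without CT2A sorted sample 71 (adjusted p = 0.053), GL261 neurosphere sample 89 (0.062) or sample 90 (0.058). The neurosphere-against-adherent comparisons and the line comparisons of sorted cells share libraries, so they are not independent of one another.

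Il1a (chr2:129299610-129309972), whose product also signals from dying cells and from the cell surface, was low in the bulk tumors, at 3.07, 5.89, 3.72 and 7.11 CPM in GL261 and 5.49, 7.06, 4.94 and 5.63 CPM in CT2A. It was at 4.65, 7.61, 7.20 and 10.4 CPM in GL261 sorted and 3.10, 2.65 and 5.95 CPM in CT2A sorted cells, which overlapped. The sorted log2 difference of -0.99 (SE 0.39) missed the threshold (edgeR adjusted p = 0.0653). It passed without GL261 sample 81 (-1.17, adjusted p = 0.0131) and without CT2A sample 71 (-1.41, adjusted p = 0.0314), and also with DESeq2 (adjusted p = 0.0377) and with RSEM counts (adjusted p = 0.0428).

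In the GL261 neurosphere libraries Il1a stood at 63.5, 61.2 and 69.7 CPM, 8.82-fold above the adherent-derived cells (log2 fold change 3.14, SE 0.25, edgeR adjusted p = 0.00144). In the CT2A neurosphere libraries it stood at 12.98, 9.65, 10.2, 77.3 and 5.76 CPM. Sample 60 alone reached the GL261 level and the other 4 stayed at or below 12.98 CPM. With it, the line difference was -1.51 (SE 0.75, edgeR adjusted p = 0.11); without it, Il1a was lower in CT2A by a log2 fold change of -2.79 (SE 0.23, adjusted p = 1.96e-05). In 1 fit of all 6 groups the value with sample 60 passed (adjusted p = 0.0271). The difference between the lines in the neurosphere response was -0.57 (SE 1.003, edgeR adjusted p = 0.779), and without sample 60 it was -1.84 (SE 0.44, adjusted p = 0.0253).

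Tnf (chr17:35199381-35202007), the TNF ligand, had the lowest mean TPM of the 10 genes in the bulk and sorted groups, with 1.41, 2.00, 2.06 and 3.21 CPM in GL261 bulk and 3.26, 2.69, 3.08 and 2.96 CPM in CT2A bulk tumors. The sorted cells had 2.92, 1.90, 2.36 and 2.82 CPM in GL261 and 1.24, 1.73 and 1.73 CPM in CT2A. Every GL261 sorted library was above every CT2A one, but at 10 or more reads per library the log2 difference of -0.72 (SE 0.36) was not called (edgeR adjusted p = 0.125). Tnf was among 5 of the 10 genes whose ranges did not overlap in that comparison, as those of 58.4% of all genes tested did not.

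The GL261 neurosphere libraries held 46.3, 46.8 and 51.8 CPM of Tnf, the largest fold over adherent-derived cells among the 10 genes (log2 fold change 4.29, SE 0.19, edgeR adjusted p = 0.000123). The CT2A neurosphere libraries held 6.12, 4.20, 12.0, 49.1 and 6.35 CPM, all above the CT2A adherent-derived cells. That log2 difference was 3.28 with an SE of 0.94 and was not called (edgeR adjusted p = 0.229). Without sample 60 it was 2.14 (SE 0.41) and passed (adjusted p = 0.0437). The line difference within the neurosphere set likewise moved from -1.66 (SE 0.72, adjusted p = 0.0712) to -2.80 (SE 0.31, adjusted p = 9.69e-05) without sample 60, and passed with it in 1 fit of all 6 groups (adjusted p = 0.00966). The difference between the lines in the neurosphere response moved from -0.99 (SE 0.998, adjusted p = 0.596) to -2.13 (SE 0.44, adjusted p = 0.0136).

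Il1rn, the antagonist (chr2:24336853-24351494), was at 13.1, 8.86, 9.92 and 24.8 CPM in GL261 bulk and 12.7, 19.98, 22.1 and 14.0 CPM in CT2A bulk tumors, with overlap and no call (edgeR adjusted p = 0.614). It was at 3.79, 19.0, 23.3 and 24.9 CPM in GL261 sorted and 7.68, 10.3 and 15.8 CPM in CT2A sorted cells. Sample 81 was the lowest of all 23 libraries, and without it Il1rn was lower in CT2A sorted cells (log2 fold change -1.05, SE 0.24, adjusted p = 0.00483), where the value with it was -0.72 (SE 0.56, adjusted p = 0.32).

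In the neurosphere set Il1rn showed the widest line difference of the 10 genes. It stood at 156, 168 and 169 CPM in GL261 and at 15.9, 10.2, 6.65, 22.5 and 13.7 CPM in CT2A, which is 12.3-fold lower (log2 fold change -3.62, SE 0.32, edgeR adjusted p = 9.5e-06). It was 9.43-fold higher in neurosphere than in adherent-derived GL261 cells (log2 fold change 3.24, SE 0.50, adjusted p = 0.00966), and the same log2 difference in CT2A was 0.27 (SE 0.38, adjusted p = 0.761). The difference between those differences was -2.95 (SE 0.66, edgeR adjusted p = 0.0176) and was lost without CT2A sorted sample 71 (adjusted p = 0.0681) or GL261 neurosphere sample 89 (0.0556). In CT2A neurosphere sample 60, where Il1a and Tnf reached GL261 levels, Il1rn stayed at 22.5 CPM.

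The ratio of Il1rn to Il1b in TPM set antagonist against agonist in each library. It was 0.86 to 1.46 in GL261 bulk and 0.58 to 1.20 in CT2A bulk tumors, 0.32 to 0.58 in GL261 sorted and 0.25 to 0.63 in CT2A sorted cells. In the neurosphere set it was 0.35 to 0.38 in GL261 and 0.16 to 0.27 in CT2A. These 2 ranges did not overlap; the ratios were not tested.

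**Figure D2:**
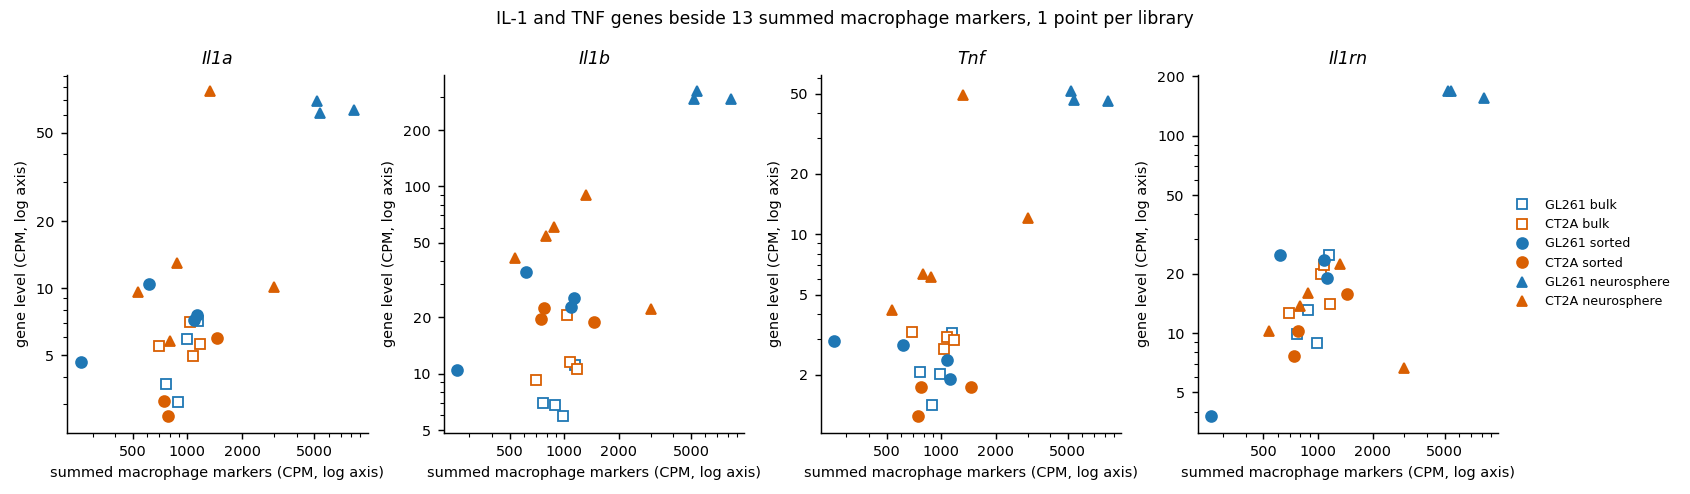
Il1a, Il1b, Tnf and Il1rn (y axes, CPM on log axes) against the summed CPM of 13 macrophage markers (x axes, log), with 1 point per library, color for the line and symbol for the kind of library. The 3 GL261 neurosphere libraries lie at the upper right of each panel, at 5187 to 8286 CPM of macrophage markers, and CT2A neurosphere sample 60 has GL261-like Il1a and Tnf at 1326 CPM of macrophage markers.

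All 13 macrophage markers were higher in the GL261 neurosphere libraries than in the adherent-derived ones (median log2 fold change 3.05), among them Cd14, the co-receptor for lipopolysaccharide (2.01, SE 0.13, edgeR adjusted p = 0.000705), and the scavenger receptor Cd163 (5.81, SE 0.50, adjusted p = 0.00167). Other cell types moved there too, with 2 of 6 microglial, 1 of 4 monocyte, 4 of 4 measured erythroid (median 5.10), 2 of 4 B cell and 1 of 3 NK cell markers higher and 2 of 6 neuronal markers lower. None of the measured neutrophil, dendritic cell, T cell, endothelial, pericyte, oligodendrocyte or astrocyte markers was called in that comparison. Of all genes, 7.58% were called higher and 0.951% lower there. All 13 macrophage markers were lower in CT2A than in GL261 neurosphere libraries (median -2.38). So were 4 of 6 microglial, 3 of 4 monocyte, 5 of 5 T cell, 3 of 3 NK cell, 2 of 4 B cell, 4 of 4 erythroid, 8 of 10 endothelial, 5 of 6 astrocyte and 4 of 6 oligodendrocyte markers. The neutrophil (1 higher, 1 lower of 4), dendritic cell (1 higher of 1), pericyte (1 higher, 2 lower of 3) and neuronal markers (2 higher, 3 lower of 6) were mixed or higher. In this line comparison 30.0% of all genes were called higher and 29.6% lower. Of the macrophage markers, 0 of 13 were called by edgeR between CT2A neurosphere and adherent-derived cells or between the bulk tumors, with 1 at an unadjusted p under 0.05 in each. The shares of all genes called were 0.167% and 23.4%. In bulk tumors and in sorted cells that hold these markers, fewer cells of a type and less RNA per cell cannot be told apart.

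Per 1000 CPM of macrophage markers, Il1b was 35.1 to 59.8 CPM in GL261 neurosphere and 20.9 to 56.7 CPM in GL261 adherent-derived libraries, which overlapped, whereas the CPM of the groups differed 13.2-fold. Il1a, Tnf and Il1rn per 1000 CPM of macrophage markers also overlapped between these groups, at 7.67 to 13.4 against 6.65 to 18.1, 5.58 to 9.98 against 1.69 to 11.3, and 18.8 to 32.6 against 14.7 to 40.5 CPM. In CT2A neurosphere libraries Il1b per 1000 CPM of macrophage markers was 67.6 to 77.8 in 4 libraries and 7.44 in sample 59, which had 2997 CPM of those markers, against 13.04 to 28.8 in the CT2A adherent-derived libraries. Those 4 libraries lay above the adherent-derived range and sample 59 below it. Tnf per 1000 CPM of macrophage markers was 37.0 in CT2A sample 60 and 4.003 to 7.97 in the other 4, all above the 1.19 to 2.22 of the adherent-derived libraries. The ranges of Tnf thus stayed apart in CT2A. In GL261 they overlapped only through sorted sample 81 (11.3 CPM). The other GL261 sorted libraries held 1.69, 2.18 and 4.59 CPM, below the neurosphere range, and neither line was tested. Il1a per 1000 CPM of macrophage markers was 3.39 in CT2A sample 59 and 7.23 to 58.3 in the other 4, against 3.41 to 4.18 in the adherent-derived libraries. Il1rn was 2.22 in sample 59 and 16.9 to 19.1 in the other 4, against 10.4 to 13.2. For both, sample 59 lay below the adherent-derived range and the other 4 above it. The part of macrophages in the levels was not tested.

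Among the transcription factors, Nfkb1 (chr3:135584655-135691547) separated the lines most. It stood at 56.0, 44.0, 49.2 and 61.3 CPM in GL261 bulk and at 167, 195, 137 and 120.3 CPM in CT2A bulk tumors (log2 fold change 1.62, SE 0.22, edgeR adjusted p = 0.0018). The sorted cells held 65.7, 46.5, 51.1 and 49.8 CPM in GL261 and 212, 212 and 237 CPM in CT2A (log2 fold change 1.99, SE 0.14, edgeR adjusted p = 1.37e-05). The neurosphere libraries held 84.5, 76.1 and 88.2 CPM in GL261 and 217, 242, 214, 234 and 216 CPM in CT2A (log2 fold change 1.39, SE 0.11, edgeR adjusted p = 4.11e-06). The lowest CT2A library was above the highest GL261 library across all 23 libraries, and the call held without each library in turn and under each alternative tried.

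Nfkb1 was also higher in neurosphere than in adherent-derived GL261 cells (log2 fold change 0.67, SE 0.15, edgeR adjusted p = 0.0297), where CT2A showed -0.0013 (SE 0.10, adjusted p = 0.996). The difference between those was -0.64 (SE 0.16, adjusted p = 0.0306). The first call was lost with no minimum count (adjusted p = 0.0502) and without any library of the comparison other than GL261 sorted sample 81 (adjusted p 0.0789 to 0.13), and the second with no minimum count (0.0949) and without any of 10 libraries of 15 (adjusted p 0.05 to 0.118).

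Nfkb2 (chr19:46304320-46312385), the precursor of the non-canonical pathway, followed the same line pattern at a smaller size. It was at 70.7, 50.2, 87.0 and 97.5 CPM in GL261 bulk and 140, 153, 108 and 117 CPM in CT2A bulk tumors, which did not overlap (log2 fold change 0.83, SE 0.25, edgeR adjusted p = 0.0442). The bulk call was lost without GL261 sample 405 or 414 or any single CT2A tumor (adjusted p 0.0563 to 0.148), with no minimum count (0.0607) and with an offset for length (0.0529). In sorted cells Nfkb2 was at 58.9, 81.4, 79.3 and 86.1 CPM in GL261 and at 151, 147 and 149.7 CPM in CT2A (log2 fold change 0.91, SE 0.15, adjusted p = 0.00119).

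The neurosphere libraries held 76.3, 77.8 and 87.7 CPM of Nfkb2 in GL261 and 160.4, 174, 78.1, 175 and 144 CPM in CT2A. CT2A sample 59 lay within the GL261 range and the other 4 above it, with a log2 fold change of 0.82 (SE 0.24, edgeR adjusted p = 0.0148). That call was lost without GL261 neurosphere sample 89 (adjusted p = 0.0559) or 90 (0.0542). The ratio of Nfkb2 to Nfkb1 in TPM was 0.75 to 0.90 in CT2A bulk against 1.03 to 1.75 in GL261 bulk tumors. It was 0.64 to 0.68 against 0.98 to 1.83 in sorted cells and 0.33 to 0.74 against 0.99 to 1.03 in the neurosphere set, with no overlap in any of the 3.

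**Figure D3:**
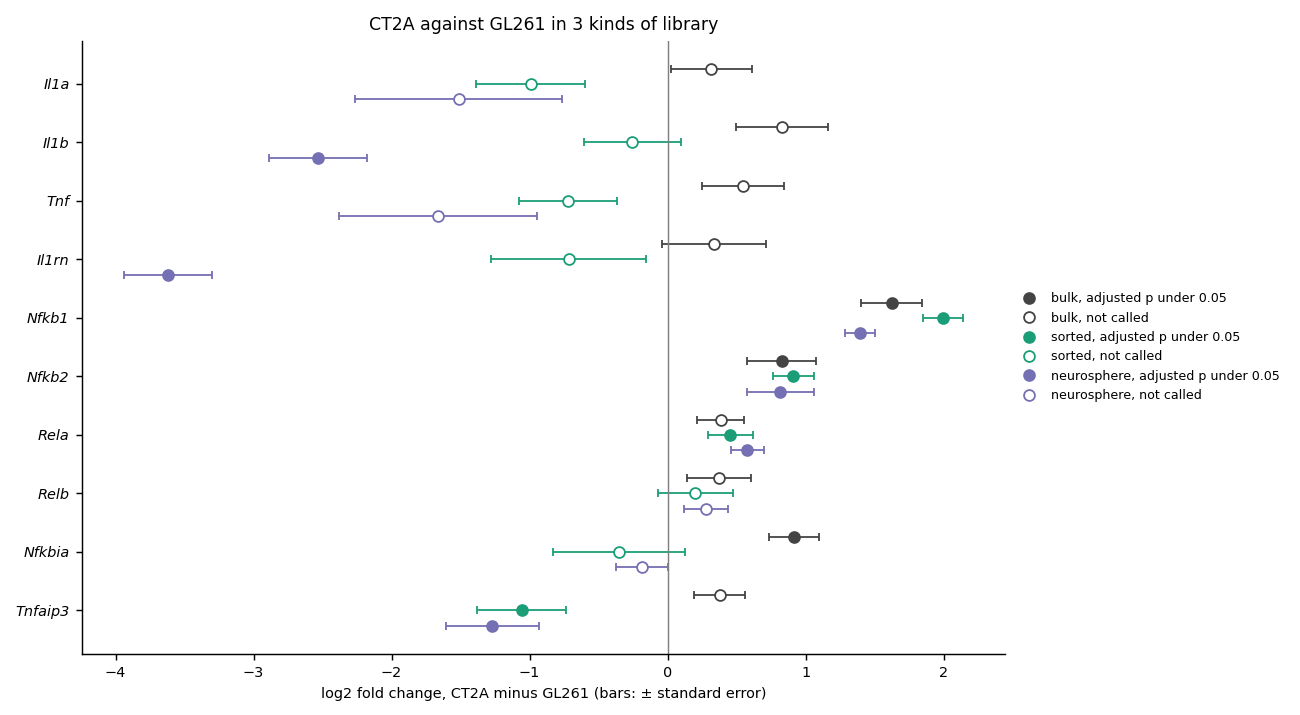
Log2 fold change of CT2A against GL261 (x axis, with the standard error as bars) for the 10 genes (y axis) in bulk, sorted and neurosphere-derived libraries, filled where the edgeR adjusted p was under 0.05. Nfkb1 and Nfkb2 lie to the right of 0 in all 3 kinds, and Il1b and Il1rn lie farthest to the left in the neurosphere set (-2.53 and -3.62).

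Rela (chr19:5637483-5648130), the main activating subunit, differed by less. The log2 difference between the lines was 0.38 (SE 0.17) in bulk tumors and was not called (edgeR adjusted p = 0.144), but was with RSEM counts (0.51, adjusted p = 0.0432) and in 1 fit of all 6 groups (0.44, adjusted p = 0.0168). It was 0.45 (SE 0.16, adjusted p = 0.046) in sorted cells, at 84.9, 65.2, 61.3 and 53.9 CPM in GL261 and 97.3, 87.1 and 98.4 CPM in CT2A. It was 0.58 (SE 0.12, adjusted p = 0.00197) in the neurosphere set, at 82.8, 67.3 and 72.7 against 108, 118, 129, 112 and 103 CPM. CT2A was above GL261 in every library of the last 2 sets, but the sorted call was lost without any library other than GL261 sample 81 (adjusted p 0.0801 to 0.126), with DESeq2 size factors (0.0542), with no minimum count (0.0792) and with RSEM counts (0.0535). Relb (chr7:19606217-19629438), the partner of p52, ranged from 16.3 to 45.5 CPM over all libraries, and its line differences of 0.37 (SE 0.23), 0.20 (SE 0.27) and 0.28 (SE 0.16) in bulk, sorted and neurosphere libraries were not called. GL261 sorted sample 81 held 38.9 CPM of Relb against 17.9 to 20.8 CPM in the other 3, and without it Relb was higher in CT2A sorted cells (log2 fold change 0.51, SE 0.11, edgeR adjusted p = 0.00387) and higher in neurosphere than in adherent-derived GL261 cells (0.62, SE 0.14, adjusted p = 0.0191), where the value with it was 0.32 (SE 0.28, adjusted p = 0.585).

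Transcript estimates were read only as shares of a gene's TPM. Nfkb1 reads were spread over several protein-coding transcripts, with a median of 25.4% to 44.3% for Nfkb1-206 and 19.8% to 35.0% for Nfkb1-201 over the 6 groups. Nfkb2-201 carried a median of 50.6% to 73.1% of Nfkb2. Relb was assigned to Relb-201, Relb-202 or Relb-203, of 2200, 2209 and 2203 bases, with shares from 0% to 90.6% between libraries of 1 group, so these near-identical transcripts could not be told apart and only the gene total was used. Il1b-201 carried a median of 79.6% to 96.2% of Il1b, and the retained-intron transcript Il1b-203 reached 29.9% in 1 GL261 sorted library.

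Nfkbia and Tnfaip3 are feedback inhibitors known to be NF-kB targets, and windows at their start sites are shown as examples of such targets among the 10 genes. RefSeq promoter windows (GRCm38.p6) were found for 8 of the 10 genes. The motif GGGNNTTNCC was searched on both strands of the 250 bases before each start and was present in 4.11% of the 32851 windows. At least 1 window held it for 4 of the 8 genes with windows (Il1rn, Nfkb2, Nfkbia and Tnfaip3). Some genes had several windows, so the share per window and the count per gene cannot be compared directly. The Nfkbia window lies at chr12:55492648-55492897 on the minus strand, and the match begins 29 bases before the start. For Tnfaip3 (chr10:19015413-19015422, minus strand) and Nfkb2 (chr19:46304698-46304707, plus strand) 1 match is given, of 1 and 4 found. The windows follow RefSeq starts, and exons of the GENCODE annotation of the same genes cover 110 of the 250 bases of this Tnfaip3 window and 250 of 250 of this Nfkb2 window, against 0 of the Nfkbia window. The motif was chosen with the sequences in view, capitals mark the match, and a match describes the letters only.
Nfkbia: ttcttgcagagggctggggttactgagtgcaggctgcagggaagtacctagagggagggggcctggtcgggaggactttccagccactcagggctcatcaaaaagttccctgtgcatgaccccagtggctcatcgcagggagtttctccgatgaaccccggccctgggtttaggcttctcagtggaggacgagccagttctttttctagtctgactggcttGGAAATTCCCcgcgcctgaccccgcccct
Tnfaip3: GGAAATCCCC
Nfkb2: GGGAATTCCC

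Nfkbia (chr12:55489410-55492647) stood at 42.3, 32.7, 35.2 and 35.4 CPM in GL261 bulk and 54.1, 79.6, 65.8 and 63.5 CPM in CT2A bulk tumors. The ranges did not overlap, as in 3 of the 10 genes there and in 32.0% of all genes, and Nfkbia was 1.89-fold higher in CT2A (log2 fold change 0.92, SE 0.18, edgeR adjusted p = 0.00845). In sorted cells it was at 173, 44.3, 55.4 and 53.2 CPM in GL261 and 84.9, 60.1 and 52.7 CPM in CT2A. GL261 sample 81 was far above the rest of its group, and the uncalled log2 difference of -0.35 (SE 0.48, adjusted p = 0.568) turned to 0.31 (SE 0.19, adjusted p = 0.172) without it.

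The neurosphere libraries held 222, 193 and 177 CPM of Nfkbia in GL261 and 158, 166, 187, 248 and 136 CPM in CT2A. The lines overlapped (log2 difference -0.18, SE 0.19, adjusted p = 0.427), and the neurosphere libraries of each line were above all adherent-derived libraries of that line. The log2 difference from adherent-derived cells was 1.32 in GL261 (SE 0.46, edgeR adjusted p = 0.131) and 1.41 in CT2A (SE 0.23, adjusted p = 0.0504), and neither passed, although the GL261 value did with DESeq2 (adjusted p = 0.034) and in 1 fit of all 6 groups (adjusted p = 0.0194). The CT2A value passed with DESeq2 (adjusted p = 8.18e-07), with its size factors in edgeR (0.0499), with no minimum count (0.0136) and with filterByExpr (0.0468). Without GL261 sorted sample 81 the GL261 value was 1.97 (SE 0.13, adjusted p = 0.000225), and without CT2A neurosphere sample 60 the CT2A value was 1.25 (SE 0.19, adjusted p = 0.0123). The difference between the lines was 0.13 (SE 0.53, adjusted p = 0.912).

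Tnfaip3 (chr10:19000910-19015657) was at 19.5, 18.0, 16.6 and 24.6 CPM in GL261 bulk and 21.6, 25.3, 28.3 and 22.3 CPM in CT2A bulk tumors, with overlap (edgeR adjusted p = 0.191). In sorted cells it was at 92.1, 41.6, 45.3 and 64.7 CPM in GL261 and 38.9, 30.9 and 21.1 CPM in CT2A. No CT2A library reached the GL261 range, and Tnfaip3 was 2.08-fold lower in CT2A (log2 fold change -1.06, SE 0.32, adjusted p = 0.0244). The call was lost without GL261 sample 84 (adjusted p = 0.0536), CT2A sample 70 (0.0718) or CT2A sample 71 (0.0911).

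The neurosphere libraries held 264, 206 and 248 CPM of Tnfaip3 in GL261 and 75.2, 68.5, 111, 190.3 and 65.8 CPM in CT2A, 2.41-fold lower in CT2A (log2 fold change -1.27, SE 0.34, edgeR adjusted p = 0.0094). Tnfaip3 was 4.03-fold higher in neurosphere than in adherent-derived GL261 cells (log2 fold change 2.01, SE 0.27, adjusted p = 0.00707). The CT2A difference was 1.72 (SE 0.40, unadjusted p = 0.00183, edgeR adjusted p = 0.144), with all 5 neurosphere libraries above all 3 adherent-derived ones. The line difference of Tnfaip3 itself differed between sorted cells and bulk tumors by -1.33 (SE 0.38, edgeR adjusted p = 0.0309), in a fit that called 13.5% of 15845 genes (7.67% above and 5.80% below 0) and 1 of the 10. It was lost without GL261 bulk sample 414, CT2A bulk sample 47, or CT2A sorted sample 70 or 71 (adjusted p 0.0626 to 0.0854) and with an offset for length (0.0506).

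**Figure D4:**
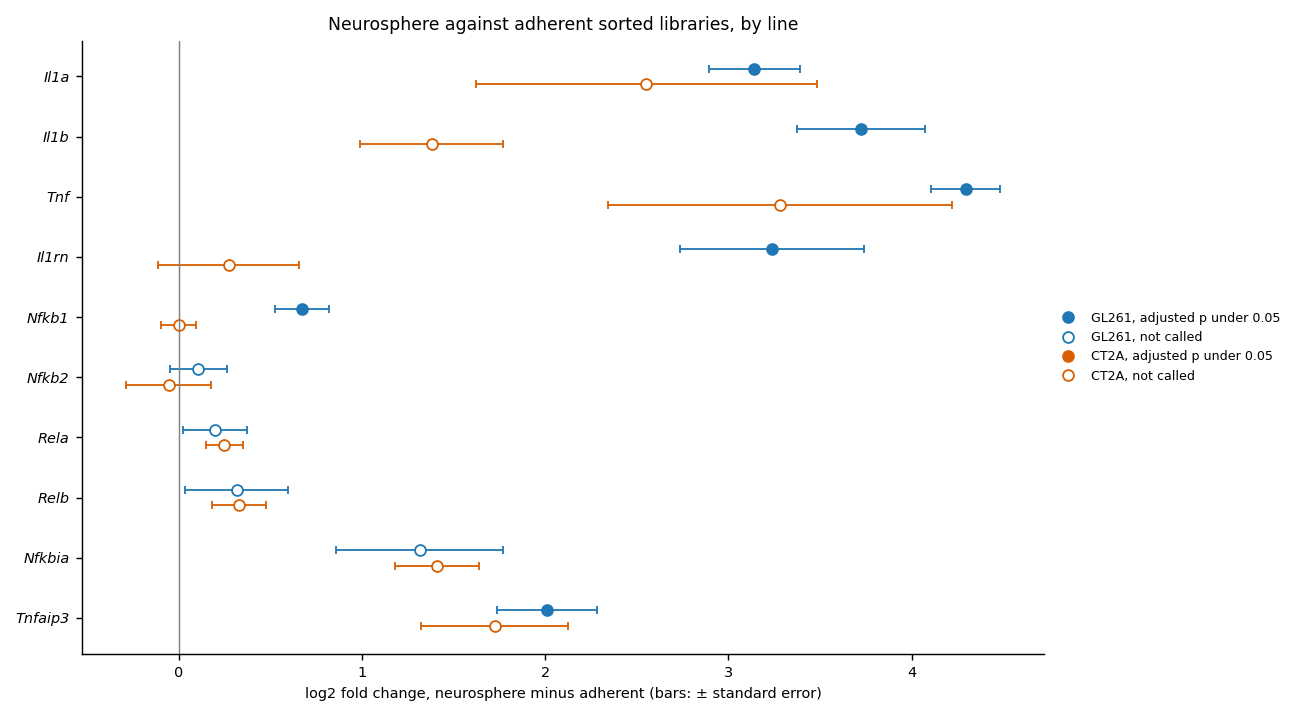
Log2 fold change of neurosphere-derived against adherent-derived sorted cells (x axis, with the standard error as bars) for the 10 genes (y axis) in GL261 and CT2A, filled where the edgeR adjusted p was under 0.05. Il1b (3.72 against 1.38) and Il1rn (3.24 against 0.27) are farthest apart between the lines, and Nfkbia (1.32 against 1.41) lies at similar values in both.

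In CT2A, edgeR called 0 of the 10 genes and 0.167% of 13142 genes (0.0533% higher and 0.114% lower) between neurosphere and adherent-derived cells. Of the 10 genes, 7 had an unadjusted p under 0.05, as did 13.1% of all genes, and 5 had ranges that did not overlap, beside 12.6% of all genes. DESeq2 called 4 of the 10, all higher: Il1b (adjusted p = 0.0104), Tnf (0.000828), Nfkbia (8.18e-07) and Tnfaip3 (0.000356). It called 302 of all 13142 genes. Without sample 60, edgeR called 3 (Tnf, Nfkbia and Tnfaip3). With each library of that comparison left out in turn, edgeR called 0 to 191 of all genes. In GL261 the ranges of 7 of the 10 did not overlap, beside 26.3% of all genes, and in the neurosphere line comparison those of 5, beside 58.4%.

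The genes around the 10 were read from 5 lists. Of 25 NF-kB target genes, 12 of 17 measured were higher and 0 lower in neurosphere than in adherent-derived GL261 cells, with a median log2 fold change of 2.61, beside 7.58% higher and 0.951% lower of all genes (median -0.03). These included the neutrophil chemokine Cxcl2 (4.04, SE 0.35, edgeR adjusted p = 0.00167), the prostaglandin synthase Ptgs2 (3.57, SE 0.37, adjusted p = 0.00305) and the monocyte chemokine Ccl2 (3.91, SE 0.46, adjusted p = 0.0044). All 13 macrophage markers were higher in that comparison too (median 3.05). The part of macrophages or other cell types in the changes of these 5 lists was not tested. In CT2A 0 of 19 measured targets were called, and 6 had an unadjusted p under 0.05, beside 0.167% and 13.1% of all genes. The difference between the lines was called for 4 of 20 targets, each more strongly raised in GL261, with Ccl2 at -2.86 (SE 0.50, adjusted p = 0.00787). That fit called 0.969% of all genes above and 5.70% below 0. Between the lines, 7 targets were higher and 1 lower of 21 in CT2A bulk tumors, 6 and 5 of 18 in sorted cells, and 1 and 12 of 21 in the neurosphere set, where 23.4%, 50.8% and 59.6% of all genes were called. The adhesion molecule Vcam1 was higher in CT2A bulk tumors (2.10, SE 0.20, edgeR adjusted p = 0.000488) and in CT2A sorted cells (3.13, SE 0.35, adjusted p = 0.000145). Icam1, another adhesion molecule, was lower in CT2A sorted cells (-2.25, SE 0.23, adjusted p = 8.76e-05) and in the neurosphere set (-2.90, SE 0.34, adjusted p = 5.8e-05).

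Among IL-1 receptors and adaptors, 4 were higher and 1 lower of 18 measured in CT2A bulk tumors, 4 and 4 of 17 in sorted cells and 3 and 6 of 17 in the neurosphere set (23.4%, 50.8% and 59.6% of all genes called). The signaling receptor Il1r1 was higher in CT2A in all 3 kinds of library, by 1.43 (SE 0.24, edgeR adjusted p = 0.00403) in bulk, 2.54 (SE 0.40, adjusted p = 0.00101) in sorted and 2.15 (SE 0.21, adjusted p = 1.76e-05) in neurosphere-derived libraries on the log2 scale. Its co-receptor Il1rap was lower in CT2A in each, by -1.32 (SE 0.22, adjusted p = 0.00416), -2.04 (SE 0.17, adjusted p = 3.37e-05) and -1.57 (SE 0.11, adjusted p = 1.74e-06). The IL-33 receptor Il1rl1 was also higher in each. Tab1, an adaptor of the kinase Map3k7 (TAK1), was lower in CT2A sorted cells by -4.30 (SE 0.15, adjusted p = 4.75e-07), with 14.5 CPM on average against 276 CPM in GL261. Tab1 was also lower in the neurosphere set, by -3.21 (SE 0.26, adjusted p = 4.43e-06), at 21.9 against 196 CPM. It was not called lower in bulk tumors, where Il1rap was the 1 gene of this list called lower. In GL261, 4 of 16 rose in neurosphere-derived cells, beside 7.58% of all genes. Among the 4 was the adaptor Myd88 (1.85, SE 0.33, adjusted p = 0.0149).

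Of the other IL-1 family ligands and inflammasome genes, 1 was higher and 3 lower of 12 measured in CT2A bulk tumors, 2 and 5 of 11 in sorted cells, and 0 and 8 of 11 in the neurosphere set (23.4%, 50.8% and 59.6% of all genes called). The DNA sensor Aim2 and the IL-18 inhibitor Il18bp were lower in CT2A in each, with -3.46 (SE 0.32, edgeR adjusted p = 5.21e-05) and -2.66 (SE 0.26, adjusted p = 7.54e-05) in sorted cells. Casp1, which cleaves pro-IL-1 beta, was higher in CT2A bulk tumors (1.54, SE 0.28, adjusted p = 0.0058) and sorted cells (0.94, SE 0.23, adjusted p = 0.00864). In GL261 neurosphere-derived cells 2 of 11 rose, beside 7.58% of all genes. The 2 were the sensor Nlrp3 (3.42, SE 0.31, adjusted p = 0.00215) and its adaptor Pycard (2.51, SE 0.60, adjusted p = 0.0388).

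TNF receptors, ligands and adaptors had 5 higher and 0 lower of 22 measured in CT2A bulk tumors, 5 and 2 of 19 in sorted cells, 3 and 10 of 20 in the neurosphere set, and 7 and 0 of 20 in GL261 neurosphere against adherent-derived cells. The shares of all genes called were 23.4%, 50.8%, 59.6% and 8.53%, so the list stood near the background in bulk tumors and below it in sorted cells. The TNF receptor Tnfrsf1b was higher in CT2A sorted cells (1.72, SE 0.35, edgeR adjusted p = 0.00366) and rose in GL261 neurosphere-derived cells (2.50, SE 0.37, adjusted p = 0.00942). The difference of its neurosphere response between the lines was -2.59 (SE 0.38, adjusted p = 0.00338).

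Of the IkB kinases and other NF-kB regulators, 3 were higher and 4 lower of 22 measured in CT2A bulk tumors, 1 and 12 of 21 in sorted cells and 1 and 17 of 22 in the neurosphere set, where 23.4%, 50.8% and 59.6% of all genes were called and 11.9%, 26.8% and 29.6% were lower. The lower genes included negative regulators, such as the deubiquitinase Cyld (-1.39, SE 0.17, edgeR adjusted p = 0.000283) in sorted cells, as well as Rnf31, a ligase of the linear ubiquitin complex that activates the pathway (-2.09, SE 0.16, adjusted p = 1.84e-05). Map3k14 (NIK), the kinase that starts processing of Nfkb2, was the 1 gene higher in CT2A in the sorted and neurosphere sets and was also higher in bulk tumors, at log2 fold changes for bulk (1.27, SE 0.20, adjusted p = 0.00287), sorted (1.68, SE 0.21, adjusted p = 0.000298) and neurosphere-derived libraries (0.70, SE 0.23, adjusted p = 0.0233). In GL261 neurosphere-derived cells 5 of 22 rose and 0 fell, beside 7.58% and 0.951% of all genes. Among the 5 were the atypical IkB proteins Nfkbid (3.14, SE 0.34, adjusted p = 0.00338) and Nfkbiz (1.53, SE 0.24, adjusted p = 0.00966).

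When the 6 groups were ordered by mean CPM for each gene, 50 pairs of neighbors arose, of which 12 had ranges that did not overlap, 15 passed the edgeR test in 1 fit of all groups and 10 did both. For Nfkb1 the order ran from CT2A neurosphere (225 ± 12.6 CPM, SD, n = 5) and CT2A sorted (220.4 ± 14.7, n = 3), which did not differ beyond their spread, through CT2A bulk (155 ± 32.8, n = 4) to the GL261 groups. For Il1rn the only neighbors set apart were GL261 neurosphere (164 ± 7.34 CPM, n = 3) and GL261 sorted (17.8 ± 9.64, n = 4), and the remaining 5 groups did not differ between neighbors beyond their spread. For Relb no neighbors differed. Of all genes, that fit called 29.4% between the bulk groups, 49.4% between the sorted groups and 55.7% between the neurosphere groups. Within GL261 it called 49.0% between bulk and sorted, 47.0% between bulk and neurosphere and 11.1% between sorted and neurosphere, and within CT2A 37.5%, 49.2% and 0.375%. Between GL261 bulk and CT2A sorted or neurosphere it called 60.5% and 67.5%, between GL261 sorted and CT2A bulk or neurosphere 60.9% and 56.6%, and between GL261 neurosphere and CT2A bulk or sorted 58.1% and 49.9%.

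Likeness of pattern was measured as the root mean square difference of centered log2(CPM + 1) over the 23 libraries among 14896 genes, a description with no test. Nearest to Il1a were Nfkbid (0.47) and Nlrp3 (0.47), nearest to Il1b the macrophage chemokines Ccl3 (0.58) and Ccl4 (0.63), nearest to Tnf again Nfkbid (0.50) and Ccl4 (0.53), and nearest to Il1rn Gpr35 (0.35) and Fgr (0.49). Nfkbia lay nearest to Junb (0.33) and Zc3h12a (0.38) and Tnfaip3 to Ier3 (0.43) and Ppp1r15a (0.49). The subunits had other neighbors, with Tpm3 (0.17) and Fhod1 (0.23) nearest to Nfkb1 and Ctdnep1 (0.13) and Sh3gl1 (0.14) nearest to Rela. The cytokine genes themselves spread by a root mean square of 1.33 (Il1a), 1.62 (Il1b) and 1.49 (Tnf) around their means, and Relb by 0.35.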

How the data were processed

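Salmon tables of 23 libraries were analysed. The authors quantified reads against the mouse transcriptome (mm10, GRCm38), and the deposited tables give estimated counts for every transcript, without normalization. TPM values, adjusted by Salmon for length and library size, were deposited beside them, as were effective lengths. For 15 libraries the authors also deposited expected counts per gene from STAR 2.7.7a and RSEM 1.3.3, used here as an alternative only. The depth of 7395846 to 42608400 reads sets the precision of low genes, such as Tnf with 10 to 531 reads.

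Estimated counts were summed per gene over 116546 transcripts, rounded, scaled by TMM and tested in R 4.3.3 with edgeR 4.0.16 (robust quasi-likelihood fit) for genes with a mean normalized count above 10, with Benjamini-Hochberg adjustment over all genes tested at 0.05. The procedure was tested on simulated data. CPM used TMM factors over all 23 libraries, and TPM was summed per gene. Lines were compared within each kind of library and neurosphere with adherent-derived cells within each line, and interaction terms tested differences between these. Ranges, ratios and transcript shares were not tested. Alternatives were DESeq2 1.42.0, its size factors in edgeR, other filters, a length offset, 1 fit of 6 groups, a fold minimum, RSEM and each library left out. Pathway genes came from 5 lists of 103 genes and markers from 14 lists, with at most 3 called genes named per list and direction. The 10 genes and the lists were chosen with earlier results of these data known. Gene coordinates follow GENCODE vM21 (GRCm38), and promoter windows RefSeq (GRCm38.p6). The marker used for the bead selection is not reported here.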

Additional observations from a re-analysis of the deposited data

Results flagged for a closer look

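In each group of 4 or 5 libraries the highest and lowest value of each gene was set against the spread of the others (critical ratio of gap to range 0.829 for 4 and 0.71 for 5 libraries). This was done for 40 sets of values, and chance alone picks out about 1 in 20 of such sets. In CT2A neurosphere sample 60, Il1a stood at 77.3 CPM, with the next library at 12.98 CPM, and Tnf at 49.1 CPM, with the next at 12.0 CPM. In GL261 sorted sample 81, Relb stood at 38.9 CPM, with the next library at 20.8 CPM, and Nfkbia at 173 CPM, with the next at 55.4 CPM. The summed macrophage markers were 1326 CPM in the first library, within the range of its group, and 258 CPM in the second, the lowest of all libraries. The first library also held 308 CPM of oligodendrocyte markers, against 29.3 to 54.5 CPM in the others of its group.

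The neurosphere-against-adherent difference differed between the lines, by the edgeR test of the difference itself, for 3 genes. These were Il1b (-2.32 on the log2 scale, CT2A minus GL261, adjusted p = 0.0188), Il1rn (-2.95, adjusted p = 0.0176) and Nfkb1 (-0.64, adjusted p = 0.0306). Each call was lost on leaving out certain single libraries, such as CT2A sorted sample 71, and that of Nfkb1 on leaving out most of them. In the same test 7 of 13 macrophage markers were called below 0 (median -2.94), beside 5.70% of all genes. The part of macrophages in these differences was not tested. The line difference of Tnfaip3 differed between sorted cells and bulk tumors by -1.33 (adjusted p = 0.0309).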

How the results depend on the processing

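Calls of the 10 genes were few and several lay near the threshold. With each library left out in turn, the number called ranged from 2 to 3 in bulk tumors, from 2 to 8 in sorted cells, from 5 to 8 in the neurosphere line comparison, from 5 to 8 in GL261 and from 0 to 3 in CT2A neurosphere against adherent-derived cells, from 0 to 5 for the line difference in that response, and from 0 to 1 for the line difference between sorted cells and bulk tumors. The 8 calls in sorted cells came without GL261 sample 81, the 3 calls in CT2A and the 5 of the line difference without CT2A neurosphere sample 60, and the 0 of that line difference without CT2A sorted sample 71 or GL261 neurosphere sample 89. Without GL261 neurosphere sample 90 it was 1.

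A minimum absolute log2 fold change of 1 left 1 gene in bulk tumors and 2 in sorted cells. In CT2A neurosphere against adherent-derived cells, edgeR with DESeq2 size factors, with no minimum count or with filterByExpr called 1 gene each, the fit of all 6 groups 2 and DESeq2 4. A length offset left 0 genes for the line difference between sorted cells and bulk tumors. The other alternatives kept the count within 1.5 times the reported one, in 42 of 50 cases. These cases also hold the counts of neighboring pairs without overlap (TPM or RSEM counts) and of nearest genes by likeness of pattern. The cause of the changes was not tested.

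Directions turned only in differences that were not called. In CT2A neurosphere against adherent-derived cells, Nfkb1 was 0.017 with no minimum count, 0.00089 with filterByExpr and 0.011 with 6 groups, and -0.039 to 0.031 with libraries left out, where Nfkb2 was -0.14 to 0.11. In GL261 Nfkb2 was -0.015 to 0.17. Nfkbia in sorted cells was -0.58 to 0.31. For the line difference in the neurosphere response, the length offset gave -0.13 (Rela), -0.11 (Relb) and -0.064 (Nfkbia), and leaving out libraries -0.21 to 0.069 (Nfkb2), -0.19 to 0.24 (Relb) and -0.45 to 0.35 (Nfkbia). For the line difference between sorted cells and bulk tumors, Relb was 0.0095 with the length offset and -0.25 to 0.20 with libraries left out.

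In 10 of the 50 neighboring pairs of groups TPM ranges did not overlap, against 12 in CPM. No paired analysis was possible because the groups share no replicate numbers. Over all genes, CT2A neurosphere against adherent-derived cells gave 22 calls, against 35 with DESeq2 size factors, 87 with no minimum count, 40 with filterByExpr, 302 with DESeq2 and 58 with 6 groups. DESeq2 called 1873 against 1167 genes in GL261 and 1539 against 922 for the line difference in that response. The fold minimum left 2220 of 3839 genes in bulk tumors, 4425 of 7000 in sorted cells and 4963 of 8182 in the neurosphere line comparison. Leaving out libraries moved the GL261 count between 307 and 2435, the CT2A count between 0 and 191 and the line difference between 261 and 1267. Groups of 3 to 5 libraries limit the tests, and for Tnf so do the few reads.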
